A study of Mus musculus with 4 samples.

Results

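The doxorubicin response of cells without p53 was read from 1 array of p53-/- mouse embryonic fibroblasts (MEFs) treated with doxorubicin, set against 1 array of p53-/- MEFs that received no agent. These are 2 of 4 arrays, and the other 2 hold wild-type (WT, p53+/+) MEFs without agent and with doxorubicin. MEFs are connective tissue cells grown from mouse embryos, and the p53-/- cells lack the p53 gene in both treatment groups. The sources give no clone, embryo, sex or passage for the cells, and they name neither the dose nor the duration of the doxorubicin treatment of the arrays. Of 39429 array features that are not controls, 24450 were well above background on 1 or both p53-/- arrays. Among them 21034 were so on both arrays, 2001 on the doxorubicin array alone and 1415 on the untreated array alone.

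Doxorubicin is an anthracycline that slips between DNA base pairs and traps topoisomerase II on cut DNA, which leaves double-strand breaks. The kinases ATM and ATR then signal to p53, a transcription factor that switches on genes of growth arrest and cell death. Cells without p53 still have the other branches of the damage response, such as the NF-kB pathway, the MAP kinase pathways that act on AP-1, and the sensors of nucleic acids that start the type I interferon program. The comparison describes which genes moved with the drug where p53 itself was absent.

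The Trp53 feature had signals of 442 without and 543 with doxorubicin in p53-/- MEFs, beside 1228 and 3442 in WT MEFs. The p53-/- signals were the 2 lowest of the 4. The position of that feature relative to the targeted exons is not given in the sources used here.

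Signals are fluorescence intensities, and each ratio below is the log2 ratio of doxorubicin-treated over untreated p53-/- MEFs after each array was set to its own 75th percentile. A gene counts as measured where its feature was well above background on both arrays, and "rose" and "fell" stand for at least 2-fold. With 1 array a condition no ratio has a replicate check and no test was possible. Repeat spots of the same feature gave a typical SD of 0.084 for a log2 ratio, over 257 features above background on both arrays. The scanner software's own error of a log2 ratio was larger, with a median of 0.205 over measured features. Both cover the array alone and not the culture or the labeling. Signals below 250.1 on the untreated array or 119.7 on the doxorubicin array lie within reach of the brightest negative control spot, and ratios that rest on them are named as such.

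In p53-/- MEFs 1568 of 16945 measured genes rose (9.25%) and 1168 fell (6.89%). A rise of at least 4-fold was seen for 343 genes and a fall of that size for 162. At 8-fold the counts were 97 and 14, so the large changes were mostly rises. The middle of the distribution was narrow, with a median log2 ratio of 0.0011 and the quartiles at -0.37 and 0.44. The balance of rises and falls depended on the scaling. With array medians in place of the 75th percentile, the median log2 ratio of all genes was -0.30 and the counts were 956 higher and 2098 lower, so that rises made up 31.3% of the calls in place of 57.3%. With quantile normalization they were 1371 and 1397. Under array medians every ratio below is lower by that same shift, so positive list medians smaller than the shift turn negative. Dim genes rose more often than bright ones. In the dimmest of 5 equal classes of measured genes 16.2% rose and 6.61% fell, and in the brightest class 2.45% and 3.57%. Among the 14200 genes with both signals above the brightest negative control, 875 rose and 1120 fell. The counts within a list are to be read against the shares of all genes. In WT MEFs, whose values are given beside some results, 11.0% of 17505 measured genes were at least 2-fold higher and 10.4% at least 2-fold lower.

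**Figure D1:**
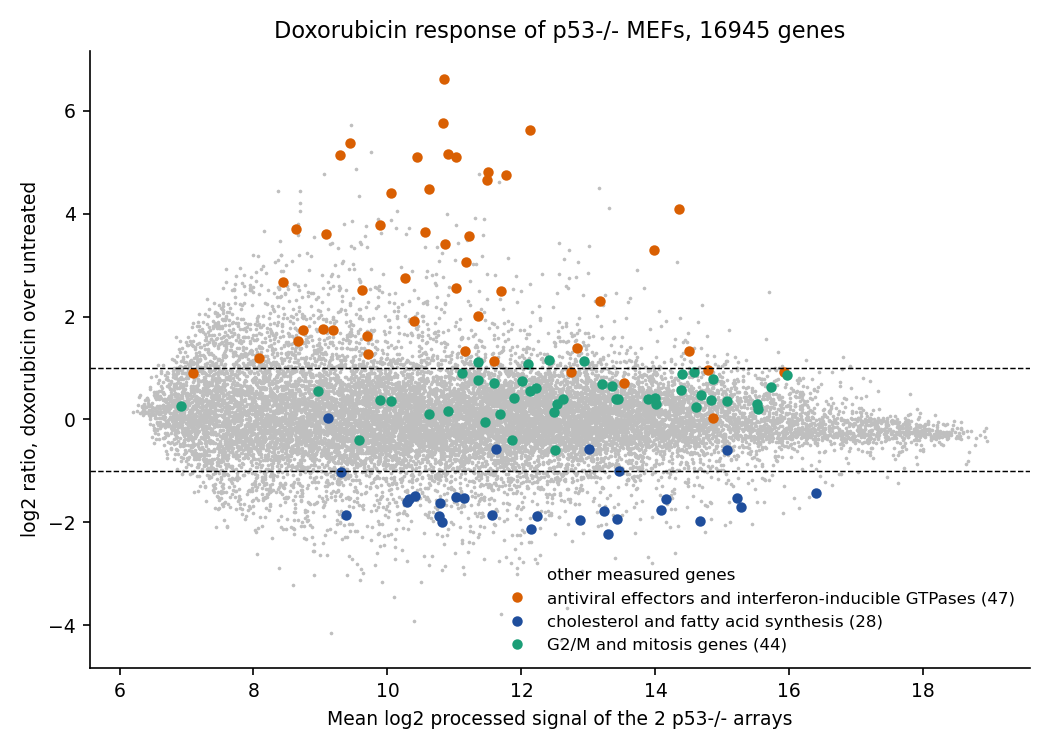
Each point is 1 of 16945 measured genes, with the mean log2 processed signal of both p53-/- arrays on the x axis and the log2 ratio of doxorubicin over untreated on the y axis, and dashed lines mark 2-fold. Antiviral effectors and interferon-inducible GTPases (47 genes) lie mostly above the upper line, cholesterol and fatty acid synthesis genes (28) mostly below the lower line, and G2/M and mitosis genes (44) between them, at a median of 0.41.

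The 10 largest rises among genes clear of the negative controls were interferon-inducible genes. Gbp2, a guanylate-binding protein that attacks the membranes around intracellular pathogens, went from a signal of 562 to 35622, a log2 ratio of 5.62 (49.3-fold). Oas1a, which makes the 2-5A messenger that activates RNase L, went from 282 to 12921, a log2 ratio of 5.16. Ifit3, which helps its family bind viral RNA, went from 312 to 13857, a log2 ratio of 5.11. The next were the receptor chaperone Rtp4, the GTPases Tgtp2, Igtp and Irgm2, the synthetase-like Oasl2, the DNA-binding Ifi204 and the chemokine Cxcl10, with log2 ratios from 4.81 for Rtp4 down to 4.48 for Irgm2. All 10 had untreated signals between 282 and 1694. A further set was well above background with doxorubicin alone and has only a lower bound. Rsad2 (viperin, an enzyme that makes a chain-terminating nucleotide) read 43 untreated and 4594 with doxorubicin, a log2 ratio of at least 5.95. Ifit3b, Oas2, the IgM receptor gene Fcmr and Cmpk2 followed with at least 5.79, 5.48, 5.40 and 5.39. Cmpk2, a mitochondrial nucleotide kinase, lies beside Rsad2 on chromosome 12.

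The largest fall was that of Igfbp5, a secreted protein that binds insulin-like growth factors, from a signal of 23989.5 to 1587, a log2 ratio of -4.28. Cacna1c, the pore subunit of an L-type calcium channel, fell from 4642 to 394, a log2 ratio of -3.92. Rbms3, an RNA-binding protein, fell from 10749 to 1013, a log2 ratio of -3.77. These features were all bright in untreated cells. Prkg1, the cGMP-dependent kinase of smooth muscle, had -3.46, and Diaph2, a formin that builds actin filaments, had -3.17. Mirg, a non-coding RNA of an imprinted cluster on chromosome 12, had -3.67, and its other feature gave -3.34. The others were the carboxypeptidase Cpa6 (-3.22), the angiopoietin-like Angptl6 (-3.16), the activity-regulated transcription factor Npas4 (-3.11) and the transcript ENSMUST00000110229 (-4.15). Of the 10, 9 also had a log2 ratio of -2.13 or lower in WT MEFs, and Diaph2 had -0.51 there. Gpc6, a glypican of the cell surface, was well above background without drug only, at 687 against 79.7, which bounds its log2 ratio at -3.34 or lower. Ccbe1, AI182371, E130119H09Rik and Gabrb1 had bounds from -3.08 to -2.88, and another feature of Ccbe1 gave -0.50.

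**Figure D2:**
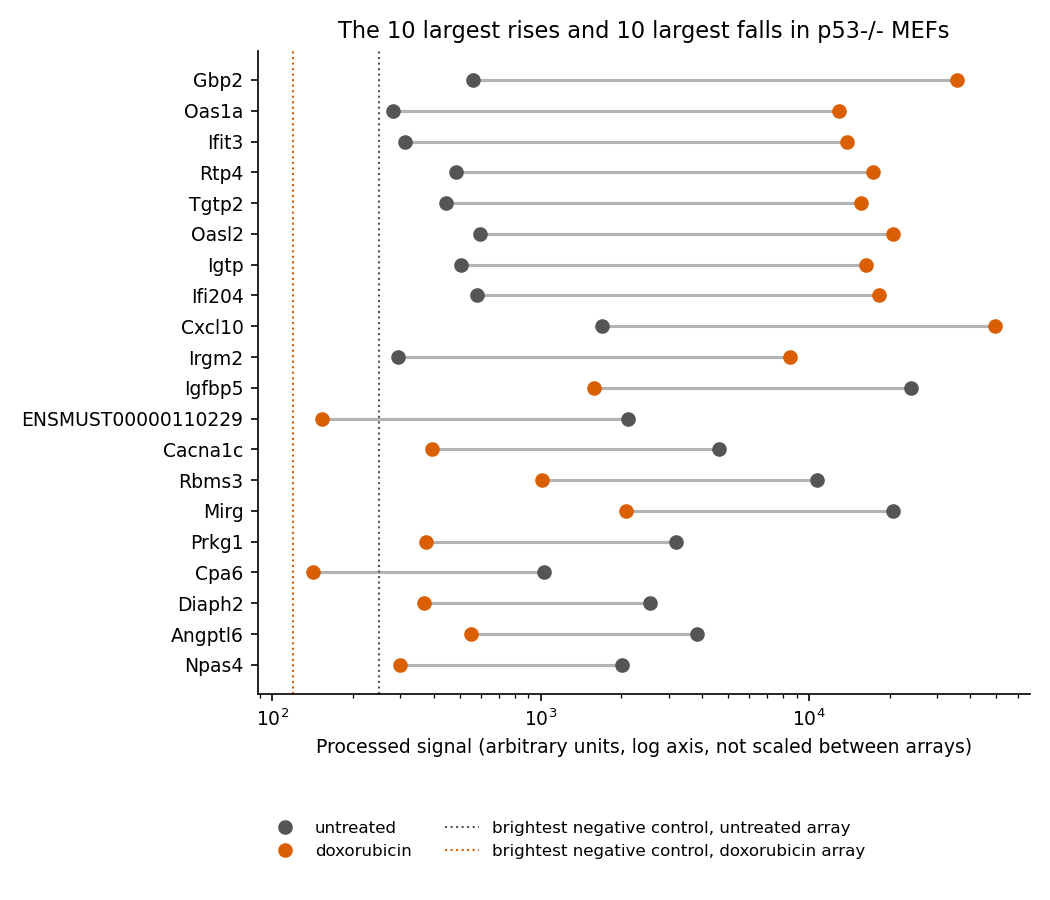
Processed signals (log axis, not scaled between arrays) of the 10 largest rises and the 10 largest falls in p53-/- MEFs, untreated in grey and with doxorubicin in orange, with dotted lines at the brightest negative control of each array. The 10 rises start between 282 and 1694 and end between 8477 and 49281, and the falls start between 1033 and 23989.5.

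Type I interferons are secreted alarm proteins. They bind the receptor of Ifnar1 and Ifnar2, which activates a complex of STAT proteins and Irf9, and that complex binds response elements in front of antiviral genes. The interferon genes themselves were near background. Ifnb1 read 12 untreated and 337 with doxorubicin, a log2 ratio of at least 2.17, and it was the feature of that list with the largest bound. Of 10 interferon genes on the array, 4 were measured, with log2 ratios from -0.27 to 0.67, and all of their untreated signals were below the brightest negative control.

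Among receptors and signal carriers 3 of 12 measured genes rose and 0 fell. Stat2 went from 4094 to 28889.5, a log2 ratio of 2.45, and Irf9 from 2948 to 13167, a log2 ratio of 1.79. Socs1, the feedback inhibitor of the receptor kinases, had 1.41. The receptor chain Ifnar1 had -0.65 on its brightest feature and 0.15 on another. Among the interferon regulatory factors Irf7, which amplifies the response, went from 24.7 to 2997, at least 5.33. Irf5 rose by 1.95 and Irf1 by 1.61, and Irf3, which is activated without new synthesis, had 0.16. In WT MEFs Irf1 had -0.70 and Stat2 0.59.

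Of the sensors of foreign or misplaced nucleic acid and their adaptors, 11 of 20 measured genes rose, 0 fell, and 3 more were above background with doxorubicin only. The list median was 1.07 beside 0.0011 for all genes. Ifi204, a DNA-binding protein of the AIM2 family, went from 579 to 18186, a log2 ratio of 4.61. Ifih1 (MDA5), which senses long double-stranded RNA, went from 415 to 5487 (3.36). Ddx58 (RIG-I), a sensor of viral RNA ends, went from 2435 to 21243 (2.76). Zbp1, which senses Z-form nucleic acid, had 4.44 from a signal of 62.6 within reach of the negative controls. Trim25, the ligase that acts with RIG-I, went from 7228 to 40204 (2.11). Cgas, the sensor of cytosolic DNA, rose by 1.02, from 1746 to 4574, and Trex1, the nuclease that removes such DNA, rose by 1.32. Tlr3 stayed near background on both arrays, at 49.7 and 138.

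Antiviral effectors are the products that block viral entry, translation and replication. Of 46 on the array, 35 were measured, 29 of them rose and 0 fell, and the median log2 ratio was 2.56. Another 6 were above background with doxorubicin only, and 5 on neither array. Isg15, a ubiquitin-like tag, went from 4491 to 98209.8, a log2 ratio of 4.09, and its other feature gave 4.46. Bst2 (tetherin), which holds budding virus at the membrane, went from 4542 to 57542 (3.30). Eif2ak2 (PKR), the kinase that stops translation on double-stranded RNA, went from 1146 to 5921 (2.01). The RNA editor Adar rose by 1.39, the smallest of these 4. Usp18, which removes Isg15 from proteins and damps the receptor, had the largest ratio of the list, 6.62, from a signal of 163 within reach of the negative controls to 20612, and had 5.39 in WT MEFs. Mx2 and Ifi44 had ratios of 5.38 and 5.14 that start from signals of 95.1 and 92.9, within reach of the negative controls, and Mx1 rose by at least 2.61. The median over the 26 members clear of the controls was 2.25.

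All 12 measured genes of the interferon-inducible GTPases rose, at a median of 2.70, and the other 3 of the list were above background with doxorubicin only. Besides Gbp2, the immunity-related GTPases Igtp and Irgm2 went from 503 to 16273 and from 294 to 8477. Irgm1, a regulator of that family, went from 3685 to 23290.4, and its features gave 1.997 and 2.30. Gbp3 and Gbp7 had 5.76 and 3.70 from untreated signals of 218 and 97.2, which the negative controls reach. Gbp, Irg, Ifit and H2 genes are families of close copies, so 1 feature can read several of them.

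Class I antigen presentation loads peptides cut by the immunoproteasome onto H2 molecules for display to T cells. In that list 13 of 19 measured genes rose and 0 fell, at a median of 1.61. H2-D1 went from 2680.0 to 24801 (2.85), and H2-K1 from 4912 to 32622 (2.37). The immunoproteasome subunit Psmb8 went from 519 to 6287 (3.24). Light chain B2m went from 36912 to 94848, and its log2 ratio of 0.997 was just under 2-fold. The peptide transporter subunit Tap1 read 16.1 and 332, at least 2.16. By contrast 1 of 34 constitutive proteasome subunits rose, at a median of 0.18.

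The promoters of these genes were read from RefSeq on build GRCm38.p6, over the 250 bases before each start site. The core of the interferon response element was searched on both strands as GAAANNGAA, where N is any base. Of the antiviral effectors with a promoter in that table, 8 of 28 held a match, and of the GTPases 6 of 7. The share over all measured genes was 7.26% and 8.18% over all genes with a RefSeq promoter. The 4 of these effectors with the largest measured rise and a match are shown to let the element be seen in its setting (Ifit1 rose by 3.60, from a signal of 137 within reach of the negative controls), 60 bases each on the strand of the gene, with matches in capitals. Overlapping matches run together, and a capital stretch that reads TTTC is the same element on the other strand.
Oas1a, chr5:120907526-120907585, minus strand: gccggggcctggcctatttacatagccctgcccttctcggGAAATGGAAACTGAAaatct
Ifit3, chr19:34583401-34583460, plus strand: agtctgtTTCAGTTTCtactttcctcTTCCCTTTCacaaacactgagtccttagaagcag
Isg15, chr4:156200851-156200910, minus strand: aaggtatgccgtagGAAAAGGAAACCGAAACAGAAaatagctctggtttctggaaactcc
Ifit1, chr19:34640779-34640838, plus strand: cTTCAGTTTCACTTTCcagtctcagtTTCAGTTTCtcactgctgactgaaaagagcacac
Counted from the start site, the stretches begin at base -60 in Oas1a, -128 in Ifit3, -92 in Isg15 and -110 in Ifit1. Isg15 and Ifit1 show 3 matches each and Oas1a and Ifit3 2 each. Of the 27 matches in the antiviral, GTPase and class I lists 63.0% lay within 100 bases of the start site, against 34.6% of 2515 matches in all promoters. Among effectors with a promoter in the table but no match, the 2 largest rises were those of Ifi44 and Oasl2, shown for comparison over the last 60 bases before their start sites.
Ifi44, chr3:151749911-151749970, minus strand: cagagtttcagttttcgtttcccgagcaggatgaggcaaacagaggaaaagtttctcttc
Oasl2, chr5:114896874-114896933, plus strand: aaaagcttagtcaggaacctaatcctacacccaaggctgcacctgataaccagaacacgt
The absence of a match says only that these letters are not in the 250 bases searched.

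NF-kB is a family of transcription factors held in the cytoplasm by IkB proteins. Its targets include its own inhibitors, chemokines and cytokines. In p53-/- MEFs 7 of 16 measured subunits and feedback inhibitors rose and 0 fell, at a median of 0.95 (WT MEFs 0.098). Tnfaip3 (A20), a ubiquitin-editing inhibitor, went from 699 to 10779, a log2 ratio of 3.58. The inhibitors Nfkbie and Nfkbia went from 768 to 7995 (3.02) and from 11644 to 55701 (1.89). The subunit Nfkb2 rose by 2.01, and Rela, the main activating subunit, had 0.62. Traf1, an adaptor of TNF receptors, rose by 2.69 from a signal of 267, and had -0.85 in WT MEFs. The letters GGANTTTCC, a core of the NF-kB site, were found in 3 of 12 promoters of the list, against 1.24% of all measured genes. The stretches of the 2 members with the largest rise and a match, chosen after their values were seen, are given with the match in capitals.
Tnfaip3, chr10:19015411-19015470, minus strand: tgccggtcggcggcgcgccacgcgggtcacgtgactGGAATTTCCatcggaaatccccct
Nfkb2, chr19:46305680-46305739, plus strand: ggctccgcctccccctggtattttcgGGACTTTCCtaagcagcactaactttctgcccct

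Chemokines attract leukocytes, and fibroblasts make several of them. Cxcl10, a ligand of Cxcr3 on T cells, went from 1694 to 49281 (4.50). Cxcl1 and Cxcl5, which attract neutrophils, went from 272 to 4622 (3.72) and from 439 to 2269.5 (2.01). Cxcl12, the homeostatic ligand of Cxcr4, moved the other way, from 60418 to 18762 (-2.05, and -1.52 on another feature). Over the CXC list 4 of 7 rose and 2 fell, and over the CC list 4 of 10 rose and 0 fell, with medians of 2.01 and 0.80. The CXC median rests on Cxcl16, which attracts T cells and had 2.92 from a signal of 232 within reach of the negative controls, and over the 6 clear members it was 0.57. Ccl2, which attracts monocytes, went from 19823 to 141522 (2.47), and Ccl7, its neighbour on chromosome 11, from 10721 to 36896 (1.42). Ccl9 rose by 2.27, and Ccl5 had 0.58. In WT MEFs 2 of 7 measured CXC genes were at least 2-fold higher and 2 lower, and of 9 CC genes 1 was higher and 1 lower. There Cxcl10 had 0.83, Cxcl1 1.06, Cxcl12 -2.95, Ccl2 0.60 and Ccl9 1.53, while Cxcl5 and Ccl7 had -3.90 and -0.73.

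Of 21 cytokine genes, 9 were measured, 4 of those rose and 0 fell, and 9 were above background on neither array. Il6, the cytokine of the acute phase response, went from 633 to 12146, a log2 ratio of 3.90 (14.9-fold), and had 0.52 in WT MEFs. Tslp, an alarm cytokine of barrier tissues, went from 466 to 2590.4 (2.11). Il1a, an alarm cytokine of the interleukin-1 family, read 11.5 and 379, at least 2.35. Tnf was not well above background with or without drug, at 21.8 and 14.2.

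Immediate early genes encode transcription factors of the AP-1, EGR and NR4A families that are induced without new protein synthesis. Here 11 of 22 measured members rose and 1 fell, at a median of 1.06 (WT MEFs 0.34). Atf3, a stress-induced repressor, went from 1133 to 6424, a log2 ratio of 2.14, beside -0.74 in WT MEFs. Fos went from 817 to 3418 (1.70), and its partner Jun from 20222 to 57237 (1.14). Klf10 and Nr4a2 rose by 1.86 and 1.66, and Egr1 stayed just short of 2-fold at 0.95. Myc had 0.095. Srf, the factor that drives many genes of this class and of the contractile apparatus, fell, with -1.36 from 9306 to 4671. Of the phosphatases and Sprouty proteins that damp MAP kinase signals, 5 of 15 rose and 0 fell. Dusp2 went from 268 to 2216 (2.68), Dusp4 rose by 1.75 and Dusp1 by 1.58, and Dusp6, which acts on ERK, had 0.73.

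**Figure D3:**
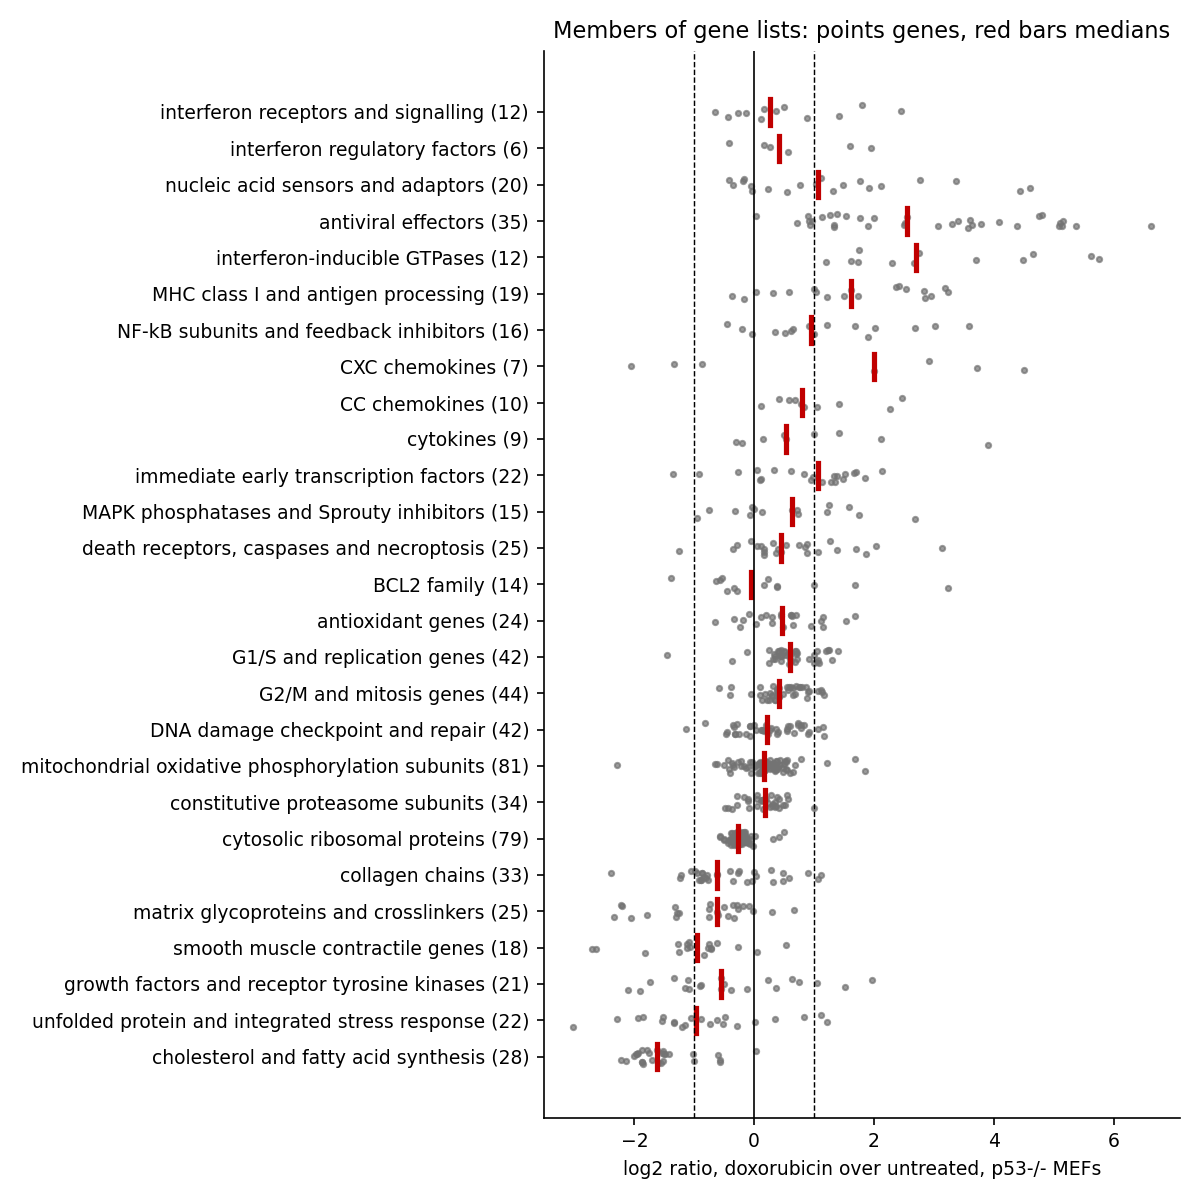
Each grey point is the log2 ratio of 1 measured gene in p53-/- MEFs, in rows by gene list with the number of measured members in brackets. Red bars are list medians (solid line, median of all genes; dashed lines, 2-fold), which reach 2.56 (antiviral effectors) and 2.70 (GTPases), and -1.62 for cholesterol and fatty acid synthesis.

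Of 5 measured p53 family members and E3 ligases of p53, 0 rose and 1 fell. Trp63 had a log2 ratio of -0.32, from 4631 to 4786, and Trp73 had 0.29, from 249 to 391, where the untreated signal is within reach of the negative controls. Mdm2, the ligase that p53 itself induces, had 0.47 in p53-/- and 1.998 in WT MEFs. Mdm4, its partner, had -1.01 and -0.80 on its features, so that 1 of them reached 2-fold. Of the CDK inhibitors, 1 of 7 rose. It was Cdkn1a (p21), from 977 to 5912, while Cdkn2a and Cdkn2b, the inhibitors of the INK4 locus, had 0.0064 and 0.025.

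Most cell cycle genes stayed within 2-fold in p53-/- MEFs. Of the G1/S and replication genes 11 of 42 rose and 1 fell, at a median of 0.59, and of the G2/M and mitosis genes 4 of 44 rose and 0 fell, at a median of 0.41. The G2/M share of rises, 9.09%, was close to the 9.25% of all genes, and without the filter on dim features the G2/M median was 0.14 above that of all genes. The same lists had medians of -1.96 and -2.77 in WT MEFs, with 28 of 40 and 35 of 37 measured genes at least 2-fold lower. The replication factor Mcm10 went from 4946 to 15134 (1.25). The ribonucleotide reductase subunit Rrm2 went from 37063 to 98531 (1.05), and the repressor E2f7 from 4250.0 to 13437 (1.30, and 0.056 on another feature). Pola1, the catalytic subunit of polymerase alpha, fell by 1.45 in the same list, from 3109 to 1462. Mitotic genes shifted by less: the spindle proteins Nusap1, Kif23 and Ndc80 had 1.16, 1.13 and 1.11, Aurora kinase gene Aurka 0.91, Ccnb1 0.41, Cdk1 0.31 and Mki67 0.30.

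The drug target genes differed among themselves. Top2a, the topoisomerase II of dividing cells, had 0.40, from 8498 to 14463, and -4.47 in WT MEFs. Top2b, the form that resting cells also carry, had -0.92, from 15781 to 10772. Tdp2, which removes topoisomerase II from DNA ends, had 0.94, and Tdp1, which acts on topoisomerase I, had -0.76. Of the checkpoint and repair genes 3 of 42 rose and 1 fell, neither share above that of all genes. The exonuclease Exo1 and the recombination mediator Rad52 rose by 1.07 and 1.16, and Xpa of nucleotide excision repair fell, with -1.15. Atm and Atr had -0.13 and -0.07, and the features of Brca1 and Chek1 were not well above background. Replication-dependent histone genes split, with 6 of 35 higher and 3 lower. H3c15 went from 373 to 3737 (2.96) and H2bc18 from 2020.2 to 480.3 (-2.44). These genes are close copies, and labeling started from oligo-dT although most of their transcripts carry no poly(A) tail.

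Cell death genes that rose included those of the necroptosis, pyroptosis and death receptor arms. Casp4 (caspase-11), the sensor of cytosolic lipopolysaccharide, went from 1062 to 12022, a log2 ratio of 3.14 on its brightest feature and 3.07 on another, beside -0.29 in WT MEFs. Gsdmd, the pore protein that caspase-11 cuts, went from 885 to 3720.3 (1.71). Ripk3, the kinase of necroptosis, went from 14252 to 48080 (1.39), and its substrate Mlkl had 2.03 from a signal of 224 within reach of the controls. The death receptor Fas rose by 1.86, and Cflar (c-FLIP), which blocks caspase-8, by 1.07. Apaf1, the scaffold of the apoptosome, fell, with -1.26, and Casp8 had 0.41. The list held 7 rises and 1 fall among 25 measured genes. In the BCL2 family 2 of 14 rose. Pmaip1 (Noxa) went from 2653 to 10968 (1.68) and Bcl2l11 (Bim) had 3.23 from a signal of 129 within reach of the controls, while Bbc3 (Puma) had -0.46, Bax -0.33 and Bid 0.99. Bok fell, with -1.39.

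The unfolded protein and integrated stress responses raise chaperones and amino acid synthesis when protein folding or supply fails. In p53-/- MEFs 11 of 22 fell and 2 rose, at a median of -0.97 (WT MEFs -0.87, 11 of 22 lower). Trib3, a pseudokinase induced by Atf4, went from 18394 to 2898, a log2 ratio of -3.03. The asparagine synthetase gene Asns went from 50082 to 16876 (-1.93), and Chac1, which degrades glutathione, from 17618 to 6276 (-1.85). Vldlr had -2.28 and Xbp1, the transcription factor of the folding branch, -1.53. Atf4 itself had -0.74 and the chaperone Hspa5 (BiP) -0.62, so neither fell 2-fold. Members that rose were Dnajb9, a co-chaperone of BiP, from 1625 to 4845 (1.21) and Ppp1r15a (Gadd34), which ends the translation block, from 14162 to 39296 (1.11). Ddit3 (Chop) had 0.83 in p53-/- and -0.71 in WT MEFs.

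Other stress genes rose in small numbers. Of the cytosolic heat shock chaperones 3 of 16 rose, among them Hspa1a from 329.7 to 1000.4 (1.24) and Hspb1 from 75381 to 198537 (1.03). Of the antioxidant genes 5 of 24 rose and 0 fell, at a median of 0.47. The quinone reductase Nqo1, which accepts anthracycline-like quinones, went from 477 to 1773 (1.53), and glutathione peroxidase Gpx1 from 46035 to 131991 (1.16). Sod2 had 0.30 and Hmox1 0.44. Both mouse genes for the multidrug pump P-glycoprotein, which exports doxorubicin, were higher. Abcb1b went from 1119 to 7329 (2.35) and Abcb1a from 36.7, not well above background, to 298 (at least 1.999). Among the other pumps, Abcg2 had 0.68 and Abcc1 -0.61.

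Sterol and fatty acid synthesis was the list with the largest share of falls. Its genes are driven by the SREBP factors, which leave the endoplasmic reticulum when sterols run low. In p53-/- MEFs 24 of 28 fell and 0 rose, at a median of -1.62, and in WT MEFs 25 of 28 were lower, at a median of -2.22. The late enzymes of sterol synthesis Msmo1 and Dhcr7 went from 45469.9 to 14900.1 (-1.97) and from 3190.4 to 1025 (-2.002). On the fatty acid side, Acaca, which makes malonyl-CoA, had -2.22 with its features between -2.22 and -1.12, the desaturase Scd1 -2.14 and the elongase Elovl6 -1.95. The sterol element was searched as TCACNCCAC, and it was found in 1 of 18 promoters of the list beside 1.24% of measured genes. That promoter was of Hmgcs1, named after its values were seen, an enzyme of the early mevalonate pathway. It went from 56585 to 25428 (-1.52).
Hmgcs1, chr13:119690188-119690247, plus strand: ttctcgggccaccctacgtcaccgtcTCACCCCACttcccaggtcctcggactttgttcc
A CCAAT box, which other sterol gene promoters carry beside that element, was present in 14 of 18, against 40.1% of measured genes. That share was not particular to sterol genes. The box was in 16 of 21 promoters of the unfolded protein and integrated stress response list and in 23 of 30 of the histone list.

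Fibroblasts build the extracellular matrix, and part of that program fell. Of the matrix glycoproteins and crosslinking enzymes 9 of 25 fell and 0 rose, at a median of -0.62. The proteoglycan Lum went from 6819 to 1729 (-2.34), elastin (Eln) from 16822 to 5216 (-2.05) and the microfibril protein Fbn2 from 25105 to 7011 (-2.20). The crosslinking enzyme Loxl3 had -2.22, whereas Lox had -0.34 and fibronectin (Fn1) -0.29. Among 33 measured collagen chains 4 fell and 2 rose. Col8a2, of a network collagen, went from 8954 to 2210.1 (-2.38) and Col4a1 of basement membranes from 57886 to 31498 (-1.24). The main fibrillar chains Col1a1, Col1a2 and Col3a1 had -0.25, -0.80 and -0.12. Of the matrix metalloproteinases and their inhibitors 4 of 10 measured genes fell and 2 rose, at a median of -0.54 (-0.95 over the 9 clear members). Mmp2 (gelatinase A) went from 9721 to 4168 (-1.59) and Mmp3 (stromelysin) from 258 to 1229 (1.89). In WT MEFs Mmp2 had 0.23.

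Contractile genes of smooth muscle and myofibroblasts include many targets of Srf. Of 18 measured genes 9 fell and 0 rose, with log2 ratios from -2.70 to 0.54 and a median of -0.96 (WT MEFs -0.53). The myosin heavy chain Myh11 went from 1600.1 to 316 (-2.70), the calponin Cnn1 from 101441 to 37067 (-1.82) and gamma actin Actg2 from 139258 to 74569 (-1.27). The abundant markers Acta2 and Tagln had -0.63 and -0.72, short of 2-fold. The actin crosslinker Actn1 had -1.25 in p53-/- and 0.49 in WT MEFs. In the TGF-beta pathway 4 of 25 fell and 3 rose. The ligand Tgfb3 and its latency protein Ltbp1 fell, with -1.35 and -1.39. Id1 and Id2, targets of the BMP branch, rose by 1.29 and 1.54, and Fst, which blocks activins, rose by 1.53.

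Receptor tyrosine kinases of growth control were among the genes that fell. Igf1r went from 9039 to 2699.7 (-2.11), the insulin receptor Insr from 468 to 161 (-1.90) and Pdgfrb from 30838 to 11939 (-1.73). Their ratios in WT MEFs were -1.27, -1.44 and -2.44. The ligands that rose were Ereg of the EGF family, from 501 to 2529.9 (1.97), and Igf1, from 3269 to 12075 (1.52), although the 5 measured features of Igf1 ran from -0.12 to 1.61. Areg, another EGF receptor ligand, read 44.9 and 406, at least 2.45. The list held 7 falls and 3 rises among 21 measured genes.

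Housekeeping lists had medians near that of all genes. No ribosomal protein gene of 79 measured reached 2-fold, with log2 ratios from -0.57 to 0.50 and a median of -0.27. Of 81 oxidative phosphorylation subunits 3 rose and 1 fell, at a median of 0.17. The fall was of Cox6a2, a heart and muscle form of a cytochrome oxidase subunit (-2.29), and the rises were of Cox6b2 (1.85), Ndufb1 (1.68) and Cox7a1 (1.22). Of 18 glycolysis genes 1 rose and 2 fell, and the glucose transporter Slc2a1 had -0.97. In the lysosome and autophagy list 2 of 29 rose, the autophagosome protein Map1lc3b (1.17) and the receptor Sqstm1 (p62, 1.10), and the collagen-degrading protease Ctsk fell (-1.35). The 12 reference genes ran from -0.63 to 0.46, with Gapdh at -0.32 and Actb at -0.42, and all were short of 2-fold.

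The cell type label was checked against marker lists. All 14 fibroblast markers were measured on both p53-/- arrays, among them Col1a1, Vim and Thy1, with signals of 129015 and 161139 for Vim and 93588 and 209736 for Thy1. Lum, Pdgfrb and Prrx1 fell. Epcam and Cdh5, which define epithelial and endothelial cells, were not well above background on either array, at 24.4 and 56.8 and at 12.4 and 20.1. The keratins Krt18 and Krt19 nevertheless rose, from 8346 to 40299 (1.91) and from 4367 to 42111 (2.91). Krt19 had 3.51 in WT MEFs. Of the 8 epithelial markers 4 were measured and 3 rose, the third being Krt14 from a signal within reach of the controls (1.05), and Krt5 and Cldn4 were not well above background on either array. The pan-leukocyte marker Ptprc read 71.6 and 104, both within reach of the negative controls. Of 14 leukocyte markers, however, 10 were measured, and 9 of these were clear of the negative controls on both arrays. None of the 10 rose, with log2 ratios from -0.84 to 0.68. Fabp4, a fatty acid carrier of adipocytes and macrophages, rose from 774 to 3929 (1.98), while Pparg had 0.67 and the adipocyte markers Cfd and Plin1 were not well above background on either array. In a bulk RNA sample, fewer cells of a type and less RNA per cell cannot be told apart.

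Genes that rose lay side by side in several places of the genome (positions of the features on mm9). The longest run of adjacent measured genes or transcripts that all rose held 11, at chr17:36167338-36322575, from H2-T23 to H2-T3 in the class I region of the H2 complex, with log2 ratios from 1.10 to 2.76. The second held 6, at chr17:34319174-34453134, with Psmb9, Psmb8, Tap2, H2-Ab1 and H2-Eb1 and ratios from 1.03 to 3.24. Runs of 5 were found in 4 places, among them Ifi207, Ifi204 and Ifi211 at chr1:175653663-175956690, with ratios from 2.37 to 5.19. The ratio of 5.19 rests on a signal within reach of the negative controls. Close copies within a run may share signal. Chromosome 17 had the highest share of rises of all chromosomes, 12.8% of 841 measured genes, and 6.3% fell there. Falls lay in shorter runs. The longest held 5, at chr12:110809678-110987628, from Meg3 to Mirg, non-coding RNAs of the imprinted Dlk1-Dio3 domain that are read from the maternal chromosome, with ratios from -3.67 to -1.06. Meg3 itself went from 139137 to 86129 (-1.06). The next held 4, at chr1:72904829-74036446, with Igfbp5 and the focal adhesion protein Tns1.

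Promoter letters were compared over all measured genes, as a description. Of 16945 measured genes, 10571 had a promoter in the RefSeq table. The interferon response core was present in 7.26% of these, in 11.5% of genes that rose, in 16.7% of genes at least 4-fold higher and in 27.5% of the 69 genes at least 8-fold higher. The share among genes that fell was 7.13%. For the AP-1 site, searched as TGANTCA, the shares in the same order were 5.53%, 8.79%, 14.9%, 23.2% and 5.59%. For the NF-kB core they were 1.24%, 2.37%, 4.95%, 10.1% and 1.54%. All 3 shares thus grew with the size of the rise. So did the share of a TATA box, searched as TATAAA, from 8.54% of measured genes to 12.1%, 17.6% and 20.3% in the 3 classes of rises, so the growth was not particular to immune elements, and base composition was not accounted for. The E2F site TTTNNCGC of cell cycle promoters had shares that shrank with the rise, from 7.98% to 6.81%, 6.31% and 4.35% (3 of 69). The CHR element TTTGAA had 13.1%, 12.8%, 15.3% and 20.3% in those classes. The E2F share was also smaller among genes that fell, at 6.99%, and at 3.30% of genes at least 4-fold lower (3 of 91). In that last class the AP-1 share was 8.79% (8 of 91), the interferon core 7.69% and the NF-kB core 1.10%. The CHR element was in 37.8% of the G2/M list, and the E2F site in 29.4% of the G1/S list. The sterol element was in 2.24% of genes that fell and 0.79% of those that rose, beside 1.24% of measured genes. That contrast was not seen at 4-fold, with 1.10% of genes lower (1 of 91) and 1.35% of genes higher (3 of 222). Read the other way, 15.1% of the 767 measured genes with the interferon core rose, against 9.15% of those without it.

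**Figure D4:**
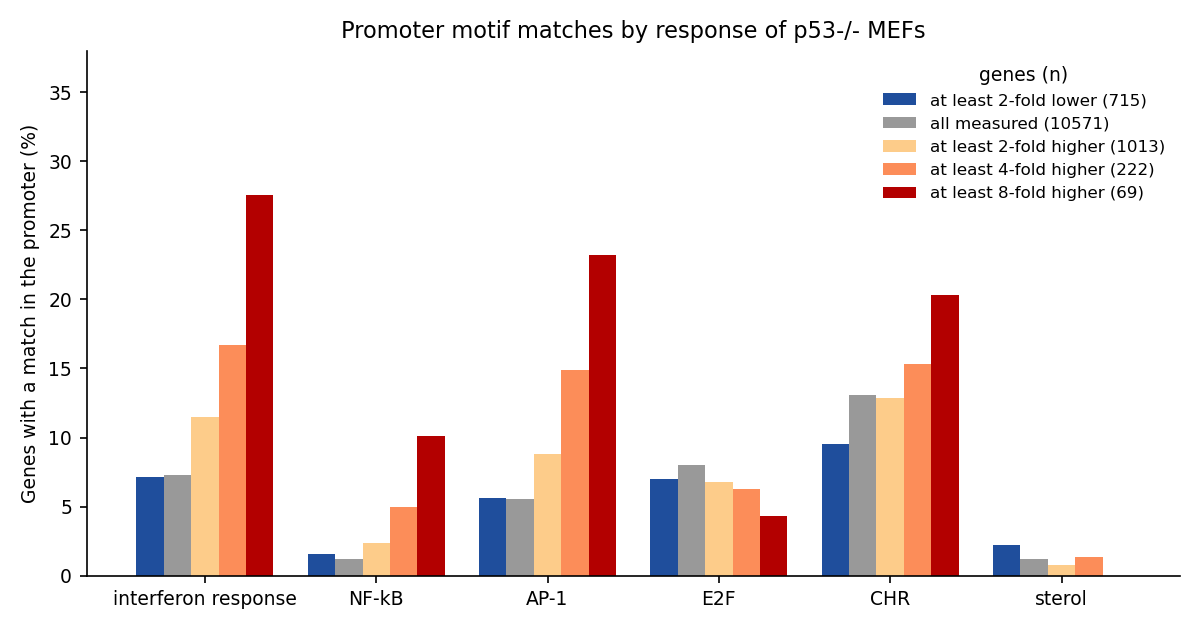
Bars give the percent of genes with at least 1 match in the 250 bases before the start site, for 6 sequence motifs, in classes of measured genes by their response in p53-/- MEFs (numbers of genes in brackets). For the interferon response core the bars go from 7.13% of genes that fell to 27.5% of genes at least 8-fold higher, and the AP-1 and NF-kB bars also grow with the rise.

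The WT arrays give values side by side, and the difference between genotypes was not tested. Of the genes that rose in p53-/- MEFs and were measured in WT MEFs, 657 of 1447 were also at least 2-fold higher there, and 423 (29.2%) were within 1.5-fold of no change. Of those that fell, 548 of 1149 were also lower and 313 (27.2%) within 1.5-fold. Counts for 4 sets of lists follow, and the same share over all genes measured on the 4 arrays was not counted. The median log2 ratio of all measured genes was 0.0011 in p53-/- and 0.0085 in WT MEFs. Among antiviral effectors and GTPases measured in both genotypes the ratio was higher in p53-/- than in WT MEFs for 41 of 44, and among cell cycle genes for 74 of 77. For cholesterol and fatty acid synthesis it was 20 of 28. For the unfolded protein and integrated stress response it was 8 of 22, a list with medians of -0.97 in p53-/- and -0.87 in WT MEFs. Genes that rose in p53-/- MEFs and were near 0 in WT MEFs, picked here after their values were seen, included Psmb8 (3.24 and 0.095), Nfkbie (3.02 and 0.24) and Socs1 (1.41 and 0.0018).

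**Figure D5:**
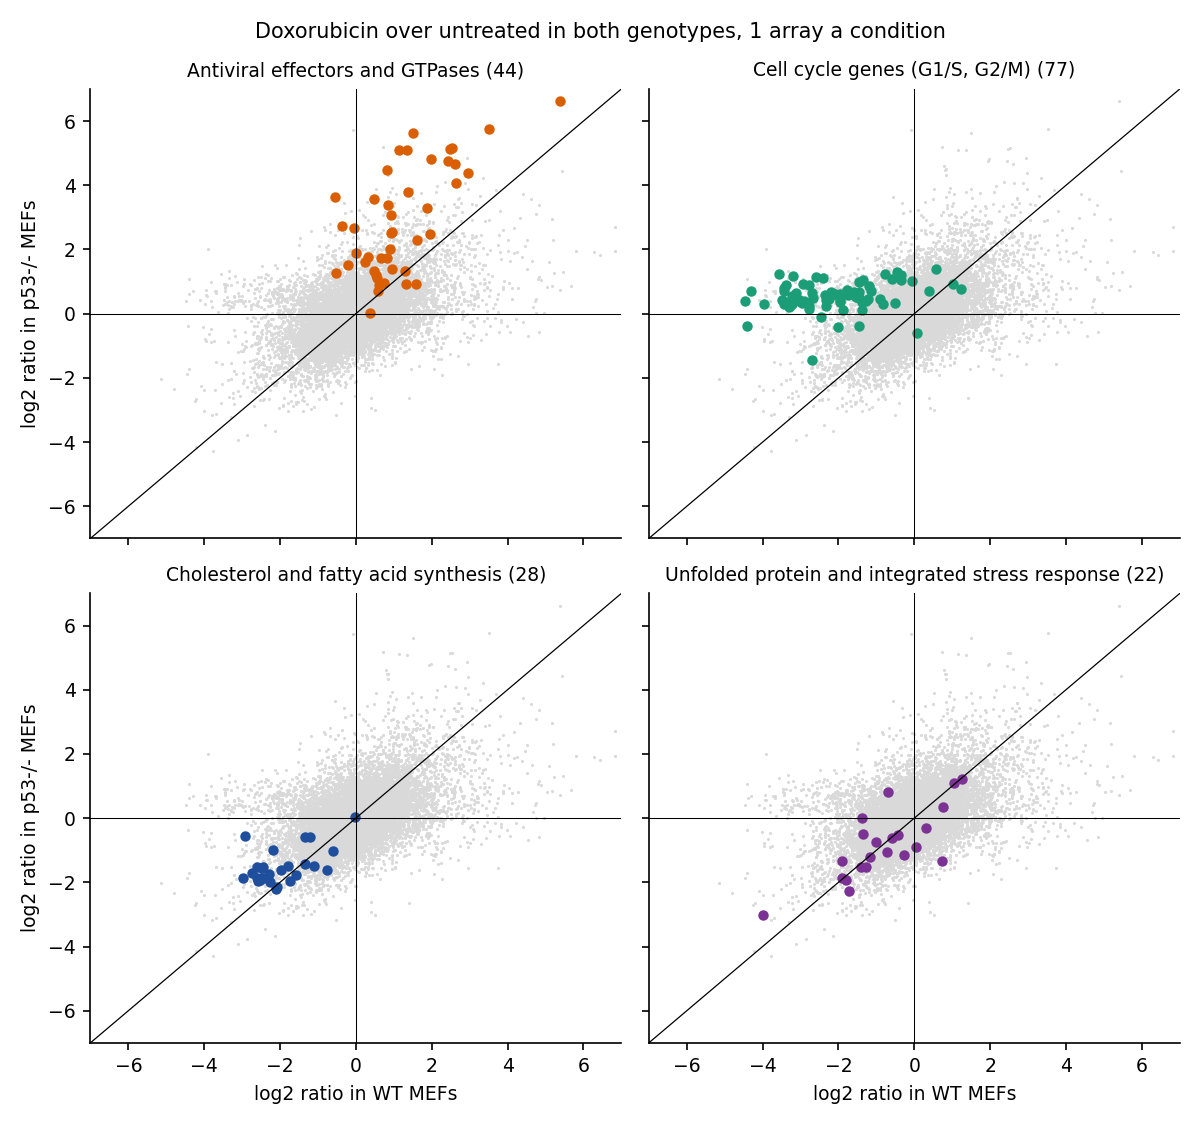
The log2 ratio of doxorubicin over untreated in p53-/- MEFs (y axis) against that in WT MEFs (x axis), 1 array a condition, with all genes measured on the 4 arrays in light grey, the members of the named lists in color (number in brackets) and the line of equal ratios. Antiviral effectors and GTPases lie above the line for 41 of 44 genes and cell cycle genes for 74 of 77, whereas cholesterol genes are low in both genotypes.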

How the data were processed

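Total RNA of each culture (200 ng) was labeled with Cy3 from oligo-dT primers and hybridized to 1 array of an Agilent one-color mouse design with features placed on mm9. The 4 arrays lie on 1 slide. The deposited scanner files hold spot intensities, which Agilent Feature Extraction 10.7.3.1 had background-subtracted and not scaled between arrays, and the authors' deposited value table holds the same processed intensity values.

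Spots marked as outliers were dropped (145 untreated and 168 with doxorubicin), no spot was saturated, log2 processed signals were averaged per feature, and each array's 75th percentile was subtracted (1881 and 2421). Of the non-control features 56.9% and 58.4% were well above background. A gene was read from its feature with the highest mean over the 4 arrays. Bounds use the lowest signal well above background on the dim array. Names came from RefSeq by transcript accession for 26154 features, by symbol for 3131 and by synonym for 910, and 9234 kept the file's name.

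Named genes were drawn from the 10 largest rises and falls clear of negative controls, the 5 largest bounds each way, the key members and the 5 largest ratios of each list, the 3 longest runs, and the promoters of the antiviral list, and not every gene so listed is described. Apaf1, Cflar, Dnajb9, Hmgcs1, Ppp1r15a, Srf and the promoters of the NF-kB and sterol lists were added after their values were seen, and some members of the lists are not reported here. Members and lists were chosen with earlier results of these data known. No test was run, since each condition had 1 array, and precision is limited by that number. Alternatives changed the scaling, background correction, filter, feature rule, table and threshold, and 0 columns of sample values were left unused. The computation of ratios and calls was run on a simulated pair of arrays with known changes and the noise of repeat spots alone. That run checks the computation and says nothing on differences between cultures or on dim genes. Normexp came from limma 3.58.1 in R 4.3.3, and the rest was computed in Python 3.11.15 (numpy 2.4.6, pandas 2.3.3, matplotlib 3.10.9).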

Additional observations from a re-analysis of the deposited data

Results flagged for a closer look

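Some results moved in opposite directions in the genotypes, at least 2-fold higher with doxorubicin in p53-/- MEFs and at least 2-fold lower in WT MEFs, or, for a list, with medians of opposite sign and clear of no change. With 1 array a condition the difference was not tested. Of 16505 genes measured on all 4 arrays, 57 were higher in p53-/- and lower in WT MEFs, and 30 the reverse.

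The G1/S and replication list had a median log2 ratio of 0.59 in p53-/- and -1.96 in WT MEFs, a difference of 2.55. Its p53-/- median was just past 1.5-fold, and without the filter on dim features it was 0.33 above that of all genes. The G2/M and mitosis list had medians of 0.41 and -2.77. It was not flagged, because 0.41 is short of 1.5-fold. Genes of DNA synthesis and repair differed by 4.82 (Mcm10, 1.25 and -3.57) and 5.47 (the exonuclease Exo1, 1.07 and -4.40). Genes of the spindle and cytokinesis differed by 4.35 (Nusap1, 1.16 and -3.19), 3.71 (Kif23, 1.13 and -2.58) and 3.51 (Ndc80, 1.11 and -2.40). Outside the cell cycle, the DNA sensor Cgas differed by 3.11 (1.02 and -2.08) and the neutrophil chemokine Cxcl5 by 5.91 (2.01 and -3.90). Scaled to array medians, the p53-/- log2 ratios were 0.95 for Mcm10, 0.77 for Exo1, 0.86 for Nusap1 and 0.83 for Kif23. Ndc80 had 0.81 and Cgas 0.73 under that scaling. These genes were then short of a 2-fold rise, and Cxcl5 kept it at 1.71.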

How the results depend on the processing

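With 1 array a condition, no array could be left out, and differences between cultures are not covered by any value here. No paired analysis was possible because each condition has 1 array and the labels give no replicate numbers. No named gene with a call changed sign under the alternatives run. Medians relative to all genes changed sign under some alternative for 10 lists near 0, those of CDK inhibitors, checkpoint and repair, topoisomerases, proteasome, glycolysis, heat shock, leukocyte markers, lysosome, oxidative phosphorylation and reference genes. Scaling to array medians gave 956 rises and 2098 falls, no filter on dim features 4717 and 2354, and both signals above the brightest negative control 875 rises. A threshold of 1.5-fold gave 3285 and 2687, and one of 3-fold 648 and 381. Of 180 named genes with a call, 36 fell under 2-fold with array medians, 14 with normexp, 7 with quantile normalization and 4 with the mean of features.

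List medians relative to all genes moved as follows. With normexp they were 2.43 for antiviral effectors, 2.41 for interferon-inducible GTPases, 1.51 for class I presentation, 0.98 for immediate early and -0.86 for contractile genes. With quantile normalization they were -0.87 for the stress response list and -0.86 for contractile genes. Without a filter they were 2.40 for GTPases, 1.41 for class I presentation, 0.71 for immediate early genes, 0.65 for NF-kB, 0.33 for G1/S, 0.14 for G2/M, -1.88 for cholesterol, -1.23 for the stress response list and -1.34 for contractile genes. With both signals above the negative controls they were 2.30 for antiviral effectors and 2.80 for GTPases. Of 9 lists with a median past 2-fold, the CXC chemokines lost it there (0.62 in place of 2.01), immediate early genes and neural markers (-0.84) with normexp, and these (neural -0.37), nucleic acid sensors (0.85) and epithelial markers (0.82) without a filter. Dim genes carry the weakest values, since their untreated signals overlap those of negative controls.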

Other observations

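Neighbouring genes outside the lists also rose together, and these were picked after their values were seen. The protease inhibitor genes Serpina3g, Serpina3h, Serpina3f and Serpina3i at chr12:105480045-105504797 (mm9) had log2 ratios from 1.57 to 3.60, and Serpina3g went from 26464 to 100824 in p53-/- MEFs, with -0.49 in WT MEFs. The lipocalin gene Apod, which carries small lipids, went from 571 to 11158 (3.92, and 0.94 in WT MEFs).

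Some markers of cell types other than fibroblasts also fell. Of 4 measured skeletal muscle markers 2 fell, the embryonic myosin Myh3 from 426 to 186 (-1.56) and the troponin Tnnt3 from 240.4, within reach of the negative controls, to 138 (-1.16), with -2.66 and -0.98 in WT MEFs, and the master regulator Myod1 was not well above background on either array. Of 3 measured neural markers 2 fell, among them Sox10 from 344 to 202 (-1.13), which had -1.41 in WT MEFs. Of the 2 measured endothelial markers none reached 2-fold. Of the genes that rose and had a RefSeq symbol, 82 of 1343 were long non-coding RNAs, and of those that fell 19 of 981. The share of long non-coding RNAs among all measured genes was not counted, and dim genes rose more often than bright ones. These counts are therefore not a result about that class of RNA.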
